A study of Mus musculus with 6 samples.

Results

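The collagens and extracellular matrix genes described here are 35 genes chosen by symbol: fibrillar collagens, collagens that decorate or link fibrils, basement membrane components, non-collagen matrix proteins, matrix-processing proteins and the fibroblast receptor Pdgfra. Of these, 34 are named for at least 1 probe set of the array annotation, out of 18193 named genes, and Fbn1 has no named probe set in the table used here. RNA was measured in olfactory epithelium microdissected from male mice at 6 months of age, with 1 Affymetrix array for each mouse. The 3 Harlequin mice were Hq/Y on strain B6CBACAw-J/A-Pdcd8-Hq/J, and the 3 littermate controls were +/Y with the strain given as B6CBACa, so genotype and any difference of strain background cannot be told apart. Harlequin is a germline hypomorphic mutation of Aifm1 (formerly Pdcd8), which encodes the mitochondrial apoptosis-inducing factor, and the study related gene expression to neurodegeneration under oxidative stress. The mice were bought at 13 weeks of age and kept to 6 months. With 3 arrays a genotype, only large differences can be told from the spread between mice.

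The extracellular matrix of the nasal mucosa lies mostly beneath the olfactory epithelium, in the lamina propria, where fibroblasts deposit collagen fibrils around glands, vessels and axon bundles. Fibrillar collagen chains assemble into triple helices that are trimmed outside the cell and joined into fibrils, and small leucine-rich proteoglycans bind the fibril surface. Basement membranes are thinner sheets of type IV collagen, laminin and nidogen made by epithelia, vessels and glia. A piece of dissected mucosa therefore carries an amount of matrix RNA that depends on how much connective tissue it holds. In such bulk samples, fewer cells of a type and less RNA in each cell cannot be told apart.

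The promoters of 4 genes are shown. Those of Col1a2 and Col3a1 were chosen because the fibrillar collagens varied together across arrays. Those of Col6a1 and Bgn were chosen because the signals of their brightest probe sets did not overlap between the genotypes. Each run is the 250 bases before the RefSeq start of the gene, and capitals mark CCAAT or GGGCGG on either strand, or TATAA on the sense strand.
Col1a2 (GRCm38.p6, chr6:4505368-4505617, plus strand): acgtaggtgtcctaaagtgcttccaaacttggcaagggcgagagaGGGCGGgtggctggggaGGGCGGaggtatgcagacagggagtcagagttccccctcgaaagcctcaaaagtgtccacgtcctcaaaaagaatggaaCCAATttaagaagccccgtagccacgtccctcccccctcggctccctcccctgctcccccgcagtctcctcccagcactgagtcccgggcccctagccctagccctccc
Col3a1 (GRCm38.p6, chr1:45311288-45311537, plus strand): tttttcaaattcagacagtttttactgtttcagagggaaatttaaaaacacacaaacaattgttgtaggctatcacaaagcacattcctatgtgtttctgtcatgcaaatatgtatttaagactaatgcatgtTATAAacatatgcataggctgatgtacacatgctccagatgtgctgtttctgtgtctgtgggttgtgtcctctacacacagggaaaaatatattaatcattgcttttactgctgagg
Col6a1 (GRCm38.p6, chr10:76726045-76726294, minus strand): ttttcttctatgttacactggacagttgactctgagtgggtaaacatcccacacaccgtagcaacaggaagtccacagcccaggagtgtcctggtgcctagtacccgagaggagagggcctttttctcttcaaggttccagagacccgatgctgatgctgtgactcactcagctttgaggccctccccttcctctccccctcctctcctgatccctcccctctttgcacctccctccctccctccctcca
Bgn (GRCm38.p6, chrX:73483351-73483600, plus strand): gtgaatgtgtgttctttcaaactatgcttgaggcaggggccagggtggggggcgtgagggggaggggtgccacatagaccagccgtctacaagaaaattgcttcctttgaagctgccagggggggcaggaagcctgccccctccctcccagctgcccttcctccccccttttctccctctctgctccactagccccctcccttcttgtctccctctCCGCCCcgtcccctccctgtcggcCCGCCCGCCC
The CCAAT of Col1a2 began 109 bases before the start and the TATAA of Col3a1 117 bases before it, while the Col6a1 stretch held none of these motifs. Bgn held GGGCGG 3 times on the reverse strand, with 2 of them overlapping. RefSeq promoter windows were found for 23 of the 35 genes, 28 windows in all. CCAAT was in 7 of the 28 windows, or 25%, against 33.8% of the 32851 windows of the whole table. TATAA was in 2, or 7.14%, against 16% of all, and GGGCGG was in 15, or 53.6%, against 32.7%. Of the 7 windows of basement membrane genes 5 held CCAAT, and the RefSeq stretches of Col4a1 and Col4a2, 300 bases each on opposite strands, share 78 bases. These matches describe the letters only.

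The arrays matched their labels at the mutated gene. Aifm1 had signals of 335.4, 221.1 and 211.2 in Harlequin and 1239.9, 1255.6 and 1128.2 in controls (log2 difference -2.20, SE 0.18, limma adjusted p = 0.0158, exact two-sided permutation p = 0.1, the smallest that 3 against 3 arrays allow). The limma call was lost when the variance model had no trend (adjusted p = 0.0887), with the replicate number as a block (adjusted p = 0.0605), and when control replicate 1, 2 or 3 was left out (adjusted p = 0.0953, 0.0749 and 0.0673), with all differences between -2.40 and -2.08 when 1 array was left out. The classical sensory neuron marker Omp was bright on every array, at 15892 to 18822 in Harlequin and 16392 to 17348 in controls. The median probe set signal was 109.6 to 113.4 on Harlequin arrays and 107.9 to 119.7 on control arrays, and Gapdh probe sets gave 3'/5' ratios of 0.729 to 0.79 on Harlequin arrays and 0.74 to 0.846 on control arrays.

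Matrix genes were lower on average in Harlequin epithelium, but none passed the test. Of the 34 genes, 32 had a log2 difference below 0, where 50% of all 13219 genes tested did, and their median was -0.33 against 0 over all genes. All differences are Harlequin minus control on the scale of log2(signal + 16). Every matrix gene passed the filter on low signals. In limma with Benjamini-Hochberg adjustment 0 of the 34 were called, with 0.0303% of all genes called, and the smallest adjusted p was 0.798. At an unadjusted p under 0.05 there were 7 matrix genes (Col6a1, Col6a2, Col12a1, Col4a1, Bgn, Fmod and Sparc), all lower, or 20.6%, against 4.58% of all genes in either direction, 2.58% lower and 2% higher. In 4 genes, or 11.8%, every Harlequin signal lay below every control signal, while 10.4% of all genes had no overlap in either direction, 5.34% lower and 5.02% higher. Matrix genes did not vary independently across the arrays, so these shares describe the list and are no test of it. The median was -0.17 without Harlequin replicate 1 and -0.47 without Harlequin replicate 2, and with 1 array left out 27 to 31 genes were lower. Leaving out a single array moved the difference by over 1.5 times, or turned it, for 29 of the 34 genes, and Col6a1, Col12a1, Col14a1, Bgn and Fmod were the 5 for which it did not.

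The spread between mice was wide for matrix genes. The standard deviation within a genotype had a median of 0.32 on the log2 scale, against 0.18 over all genes, and for 10 of the 34 genes it lay above the 90th percentile of all genes. Harlequin replicates 1 and 3 were the highest array for 0 of the 34 genes and the lowest for 16 and 11 of them. Harlequin replicate 2 was the highest for 8 and the lowest for 1. The Harlequin mice thus differed among themselves, as the heat map of deviations shows.

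**Figure D1:**
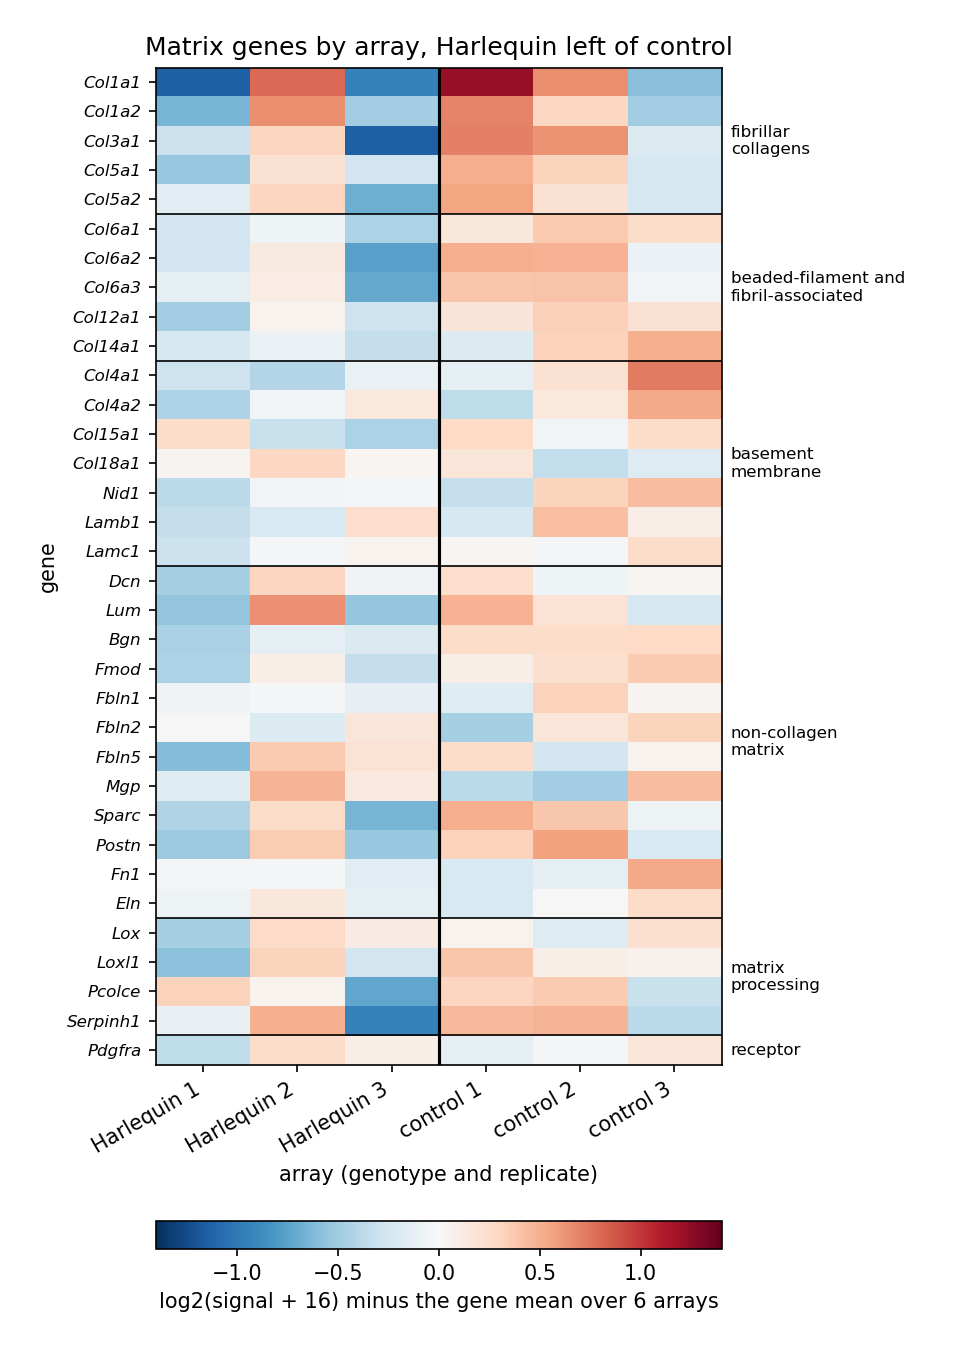
Heat map of the 34 measured matrix genes (rows, by class) on the 6 arrays (columns, Harlequin left of control). Colour is log2(signal + 16) minus the mean of that gene over the 6 arrays. Harlequin replicates 1 and 3 are blue in most rows, and the fibrillar collagens are red in Harlequin replicate 2 and control replicates 1 and 2.

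The 5 fibrillar collagens had the widest spread of the classes and did not separate the genotypes. Col1a1, which encodes the main chain of type I collagen, had signals of 884.1, 3412 and 1015.5 in Harlequin, against 4592.8, 3101.4 and 1306.1 in controls. It was low in Harlequin replicates 1 and 3 and in control replicate 3, and the groups overlapped. The highest signal was 3.86 times the lowest within Harlequin and 3.52 times the lowest within controls, and its spread stood at percentile 99.5 of all genes. The means were 1771 ± 1420 in Harlequin and 3000 ± 1650 in controls (SD, n = 3 each; log2 difference -0.86, 95% interval -2.16 to 0.44, limma adjusted p = 0.981). Its other probe set above the filter differed by -0.28, and leaving out 1 array gave values from -1.47 (Harlequin replicate 2 out) to -0.46 (control replicate 1 out). Col1a2, the partner chain of type I collagen, had 3016.4, 7464.4 and 3369.6 in Harlequin, against 7675.9, 5797.6 and 3377.7 in controls. It split the arrays in the same way, with a log2 difference of -0.33, and leaving out the same arrays gave -0.74 and -0.06.

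Col3a1, the type III collagen of pliable tissue, had 1889.7, 2895.7 and 1047.4 in Harlequin, against 3822.1, 3632.6 and 2055 in controls. Harlequin replicate 2 lay above control replicate 3, and the log2 difference was -0.77 (95% interval -1.59 to 0.06), or -0.38 without Harlequin replicate 3. Col5a1 and Col5a2, chains of type V collagen that sits inside fibrils and limits their width, differed by -0.39 and -0.35 and overlapped as well. All 5 fibrillar collagens were highest in control replicate 1. All 5 had Harlequin replicate 2, control replicate 1 and control replicate 2 as their 3 highest arrays, and so did 10 of their 10 probe sets above the filter. Over all genes 7.36% had those 3 arrays on top, a pattern looked up after these values were seen. The class median was -0.39. Leaving out Harlequin replicate 2 gave -0.74, and leaving out control replicate 3 gave -0.65.

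**Figure D2:**
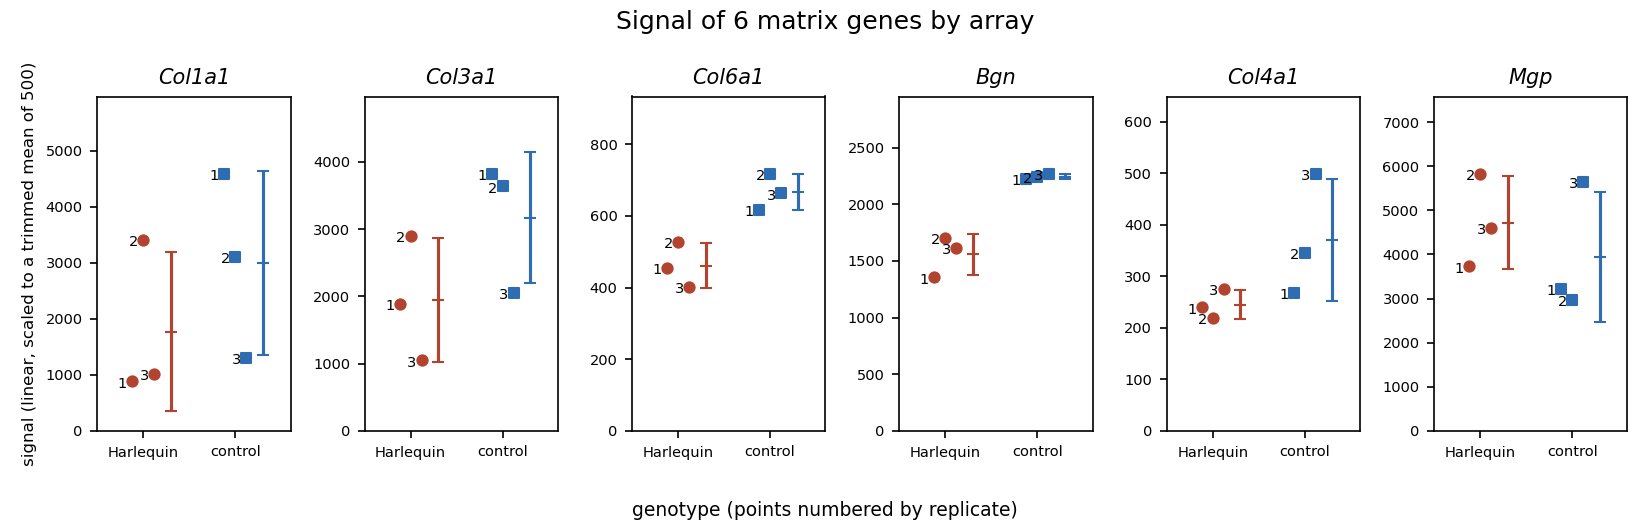
Linear signal of 6 matrix genes on each array, Harlequin (circles) left of control (squares), points numbered by replicate, with the mean and SD of 3 arrays as a bar to the right of each group. Col1a1 and Col3a1 overlap between the genotypes, Col6a1 and Bgn do not, Col4a1 is highest in control replicate 3, and Mgp is lower in control replicates 1 and 2 than in the other 4 arrays.

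The beaded-filament and fibril-associated collagens were lower in Harlequin with less spread. All 5 had differences below 0, from -0.61 to -0.42, with a class median of -0.50 (-0.64 to -0.38 with 1 array left out). Col6a1, a chain of the type VI collagen that forms beaded filaments around cells, had 455, 528 and 400.9 in Harlequin, against 617.3, 717.6 and 662.5 in controls. Every Harlequin signal lay below every control signal. The means were 461.3 ± 63.8 in Harlequin and 665.8 ± 50.2 in controls (SD, n = 3 each; log2 difference -0.52, 95% interval -0.83 to -0.21, unadjusted p = 0.00492, limma adjusted p = 0.981). Col12a1, a collagen that attaches to fibril surfaces, had 412.6, 605.9 and 475.9 in Harlequin, against 667.7, 744.1 and 683.5 in controls. It did not overlap either (log2 difference -0.49), although its next probe set differed by -0.07. The average of all its probe sets, also those below the filter, differed by -0.21.

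Col6a2 had 404.5, 536.6 and 283.3 in Harlequin, against 706.5, 697.1 and 461.9 in controls (log2 difference -0.61, and -0.33 for its other probe set). Col6a3, the long chain of type VI collagen, had 296.8, 353.5 and 193.6 in Harlequin, against 432.7, 438 and 317.9 in controls (log2 difference -0.50). For both, Harlequin replicate 2 lay above control replicate 3. Col14a1, another fibril-associated collagen, had 226, 252 and 209.4 in Harlequin, against 232.8, 337.9 and 384.5 in controls (log2 difference -0.42). These signals overlapped, while its other probe set above the filter differed by -0.37 without overlap. The highest array of Col14a1 was control replicate 3, where the fibrillar collagens were low.

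Basement membrane genes were most often highest in control replicate 3. None of the 7 had Harlequin replicate 2 and control replicates 1 and 2 on top. Over all genes 7.36% did, so a count this low among 7 genes does not set the class apart. Control replicate 3 was highest for 4 of them, Col4a1, Col4a2, Nid1 and Lamc1, or 57.1%, against 19.7% of all genes. Col4a1, which with Col4a2 makes the network-forming type IV collagen, had 239.8, 219.6 and 275.8 in Harlequin, against 267.4, 345.6 and 499.5 in controls. Harlequin replicate 3 lay above control replicate 1 and the log2 difference was -0.53 (95% interval -1.04 to -0.02, limma adjusted p = 0.981), while its other probe set above the filter differed by 0.05 and the mean of both by -0.24. Col4a2 had 213.7, 285.3 and 326.8 in Harlequin, against 226.7, 327.8 and 430.6 in controls (log2 difference -0.22). Both chains were highest in control replicate 3, and neither separated the genotypes.

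Nid1, the nidogen that links laminin to type IV collagen, had 323.7, 408.1 and 415.4 in Harlequin, against 334, 526.3 and 573.7 in controls (log2 difference -0.28). Lamb1 and Lamc1, laminin chains, differed by -0.19 and -0.18, and the 3 probe sets of Lamb1 above the filter by -0.19, -0.44 and 0.40. The other, dimmer probe set of Lamc1 had 17.9, 75.9 and 93.1 in Harlequin, against 96.9, 98.6 and 109.1 in controls. It differed by -0.75 without overlap, and the mean of both Lamc1 probe sets by -0.46. Col15a1 and Col18a1, collagens of the basement membrane zone, differed by -0.33 and 0.23. Col15a1 was close to the filter, with 42.6 to 79.5 in Harlequin and 61.3 to 80.4 in controls. Col18a1 was the 1 member of the class with a higher mean in Harlequin, and its other probe set differed by -0.30. The class median was -0.22. Leaving out Harlequin replicate 1 gave -0.07, Harlequin replicate 3 gave -0.34, control replicate 1 gave -0.40 and control replicate 3 gave -0.14.

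Non-collagen matrix genes were mixed. Of 12 measured, 11 had differences below 0, with a class median of -0.14, or -0.27 without Harlequin replicate 2, -0.24 without control replicate 1 and -0.21 without control replicate 2. The small leucine-rich proteoglycans bind collagen fibrils and control their assembly. Among them Bgn, biglycan, had 1353.7, 1702.6 and 1614.2 in Harlequin, against 2225.7, 2238.3 and 2269.8 in controls. The control signals lay close together and every Harlequin signal lay below them. The means were 1557 ± 181 in Harlequin and 2245 ± 22.7 in controls (SD, n = 3 each; log2 difference -0.53, 95% interval -0.77 to -0.29, unadjusted p = 0.00095, limma adjusted p = 0.798). Its other probe sets differed by -0.40 and -0.33, with overlap between the genotypes. Bgn is the 1 gene of the 35 on the X chromosome, which also carries Aifm1.

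Fmod, fibromodulin, had 1133.4, 1640.2 and 1219.8 in Harlequin, against 1645, 1800.2 and 1990.8 in controls, without overlap (log2 difference -0.45, 95% interval -0.80 to -0.11, limma adjusted p = 0.981). Its other 5 probe sets differed by -0.56 to -0.26, some of them with overlap between the genotypes. Lum, lumican, had 2154.8, 4963.6 and 2171.7 in Harlequin, against 4434.7, 3638.8 and 2693.7 in controls, with the highest signal of all in Harlequin replicate 2 (log2 difference -0.30). Dcn, decorin, had 8276.2, 14088.9 and 11106.1 in Harlequin, against 13626.7, 10982.6 and 11703.9 in controls (log2 difference -0.14, but 0.05 without Harlequin replicate 1). By the brightest probe set of each, Bgn and Fmod separated the genotypes, and Lum and Dcn did not. Other probe sets of Bgn and Fmod overlapped, so the separation does not hold for every probe set of these genes.

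Sparc, a collagen-binding glycoprotein, had 2802.1, 4498.7 and 2389.2 in Harlequin, against 5379.8, 4912.1 and 3573.5 in controls (log2 difference -0.55, 95% interval -1.09 to 0). Its other probe set above the filter differed by -0.28, and the mean of all its probe sets by -0.36. Postn, periostin, had 1364, 2479.5 and 1342.4 in Harlequin, against 2436.4, 2884 and 1670.9 in controls (log2 difference -0.45). Sparc, Postn and Lum shared the 3 highest arrays of the fibrillar collagens. The elastic fibre genes Eln, Fbln1, Fbln2 and Fbln5 differed by -0.03, -0.13, -0.01 and -0.02, and Fn1, fibronectin, by -0.12. Fbln2, Fbln5 and Eln changed sign under several settings, Fn1 was at 0.12 without control replicate 3, and Fbln1 was at 0 without control replicate 2.

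Mgp, matrix Gla protein, an inhibitor of calcification, lay the other way. It had 3730.2, 5831.8 and 4603.2 in Harlequin, against 3216.2, 2975.4 and 5648.4 in controls. Control replicate 3 lay between the 2 highest Harlequin arrays, and the log2 difference was 0.30 (95% interval -0.27 to 0.86, limma adjusted p = 0.982).

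The 4 matrix-processing proteins had a median of -0.29, or -0.06 without Harlequin replicate 3 and -0.46 without Harlequin replicate 2. Serpinh1, the collagen chaperone Hsp47 of the endoplasmic reticulum, had 818.8, 1255 and 452 in Harlequin, against 1218.5, 1233.6 and 679.9 in controls (log2 difference -0.37, but 0.01 without Harlequin replicate 3). Loxl1, a crosslinking oxidase of elastic fibres, had 416.9, 787.4 and 523 in Harlequin, against 825.9, 666.3 and 655.7 in controls (log2 difference -0.35). The average with its other probe set gave 0, but that probe set had a mean signal of 12.13, below the filter of 61.1. Serpinh1 and Loxl1 had the same 3 highest arrays as the fibrillar collagens. Pcolce, an enhancer of procollagen C-proteinase, differed by -0.23, but by 0.07 without Harlequin replicate 3, its lowest array. Lox, lysyl oxidase, which crosslinks collagen and elastin, differed by -0.06, with 393.5 to 663.5 in Harlequin and 482.3 to 643.2 in controls. Averaging all its probe sets, also those below the filter, gave 0.13.

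Pdgfra, the receptor for platelet-derived growth factor that marks fibroblasts, had 502.1, 771.5 and 689.8 in Harlequin, against 584.3, 634.3 and 724.7 in controls. Its log2 difference rounded to 0 from below (95% interval -0.40 to 0.39), and the sign changed with median scaling and without Harlequin replicate 1 (0.17) or control replicate 3 (0.08). Its other probe sets above the filter, both dimmer, differed by -0.33 and -0.05. A smaller difference of the receptor than of the collagens was not tested.

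**Figure D3:**
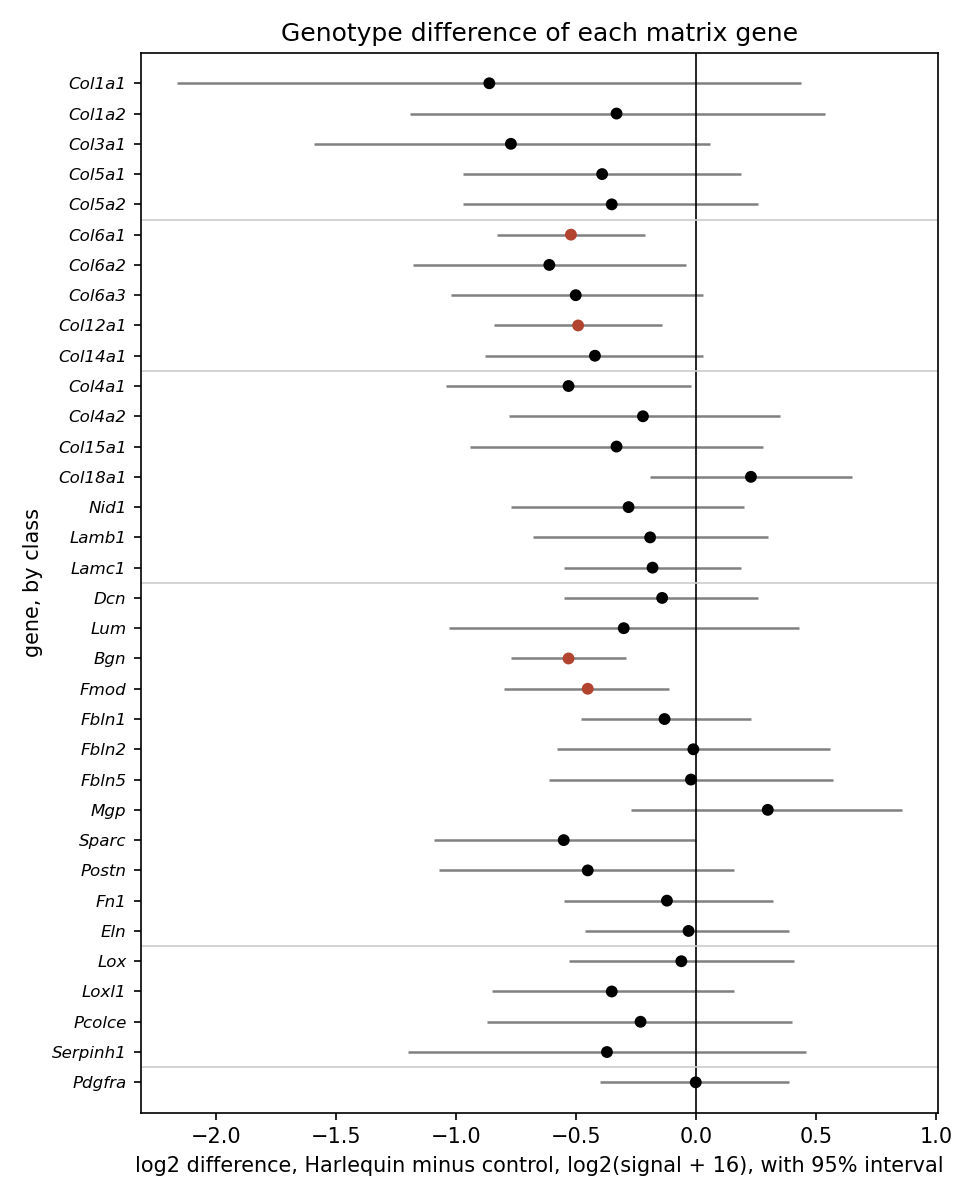
Log2 difference (Harlequin minus control, horizontal axis) of each matrix gene with its 95% limma interval, by class. Red points are Col6a1, Col12a1, Bgn and Fmod, whose Harlequin and control signals do not overlap in the probe set used. Of the 34 points, 32 lie below 0.

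The classes were compared on each array by a class score, the mean over its genes of the log2 deviation from each gene's mean over the 6 arrays. The fibrillar score was -0.56, 0.45 and -0.71 in Harlequin replicates 1 to 3, against 0.73, 0.42 and -0.34 in control replicates 1 to 3. The score of beaded-filament and fibril-associated collagens was -0.28, 0.03 and -0.51 in Harlequin, against 0.21, 0.38 and 0.17 in controls. It was the 1 class score of the 5 plotted by array in which the genotypes did not overlap.

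The basement membrane score was -0.20, -0.10 and -0.01 in Harlequin, against -0.08, 0.10 and 0.30 in controls. The non-collagen score was -0.31, 0.19 and -0.18 in Harlequin, against 0.06, 0.10 and 0.15 in controls. Harlequin replicate 2 thus had the highest non-collagen score of all arrays and a fibrillar score close to that of control replicate 2. Set within each array, the fibrillar minus the basement membrane score was -0.35, 0.56 and -0.69 in Harlequin, against 0.81, 0.32 and -0.65 in controls. This balance ranged more widely within each genotype than the genotype means differed, and control replicate 3 stood beside Harlequin replicate 3. The difference between the genotypes in this balance was -0.33, and between non-collagen and basement membrane scores it was 0.01. These scores were not tested, since the genes were chosen with earlier results known.

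**Figure D4:**
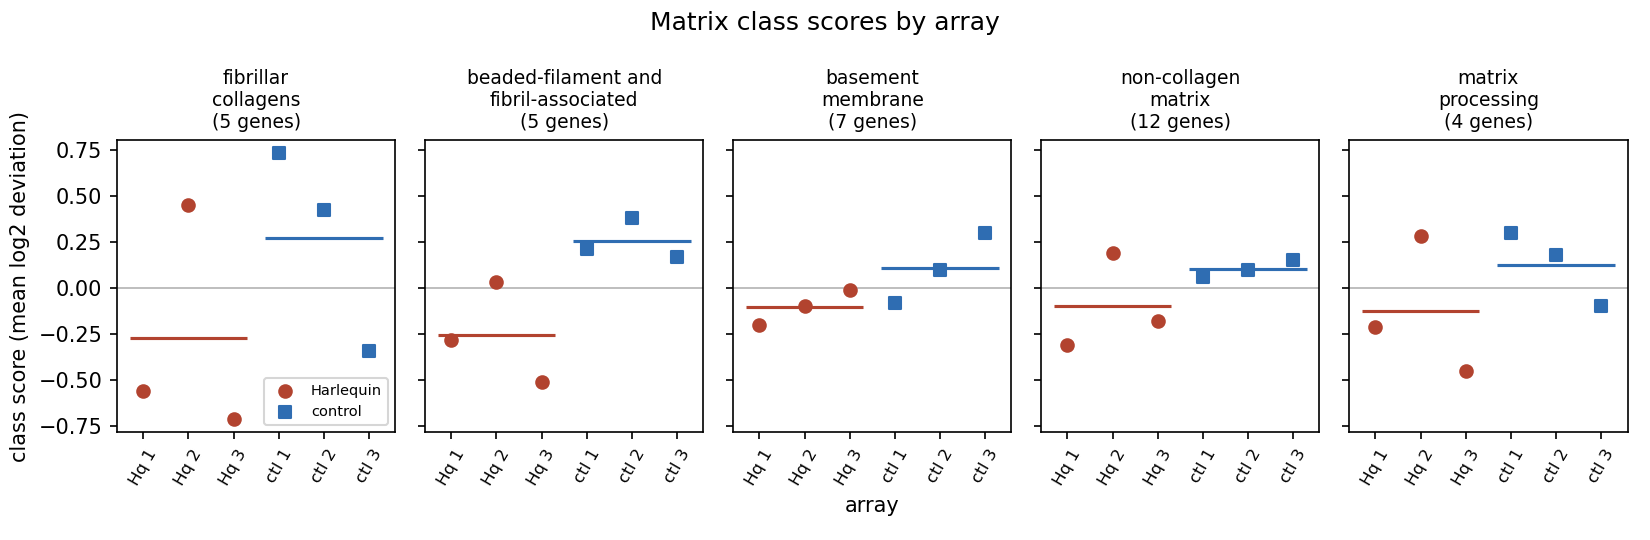
Class score (mean log2 deviation, vertical axis) of 5 classes on each array, Harlequin (Hq, circles) left of control (ctl, squares), with lines at the genotype means. Fibrillar scores run from -0.71 to 0.73 with overlap, and the beaded-filament and fibril-associated scores of Harlequin, up to 0.03, lie below those of controls, from 0.17.

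Marker lists of other cells that a dissected piece of mucosa can hold were summed on each array. The bone list (7 of 10 genes named on the array) summed to 2349.2, 6126.6 and 4259.5 in Harlequin, against 5327.6, 3800.4 and 4170.1 in controls. It was lowest in Harlequin replicate 1 and highest in Harlequin replicate 2, as for Lum. The 6 bone genes tested all had differences below 0, with a median of -0.16, from -0.25 for Omd to a value that rounded to 0 for Phex. Of them, 3 (Sp7, Phex and Alpl) had the 3 highest arrays of the fibrillar collagens, and Omd, Ibsp and Dmp1 did not. All 6 were highest in Harlequin replicate 2. None of the 9 cartilage genes tested had the 3 highest arrays of the fibrillar collagens. Over all genes 7.36% did, so a count this low among 9 genes does not set them apart. The smooth muscle and pericyte list (10 of 10 named) summed to 23391.4, 24894.9 and 21798.2 in Harlequin, against 25433.3, 29561.1 and 21214.2 in controls. Of its 6 genes tested, 3 (Acta2, Tagln and Rgs5) shared those 3 arrays, and Myh11, Cnn1 and Cspg4 did not. All 6 had differences below 0, with a median of -0.23.

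The endothelial list (10 of 10 named) summed to 1974.9, 1923.4 and 1973.6 in Harlequin, against 2112.5, 2459.3 and 2572.6 in controls. Its sums did not overlap and were highest in control replicate 3, as for Col4a1. The list of fibroblast genes other than matrix (11 of 12 named) summed to 8467.2, 8274 and 9152 in Harlequin, against 7314.5, 8329 and 9635.4 in controls, most of it from Gsn (log2 difference 0.08). Of its 8 genes tested, 6 were lower on average, with a median of -0.15. Cd34 (-0.36) and Prrx1 (-0.29) had no overlap, with limma adjusted p = 0.981 for both. They were 25% of the 8 genes, where 5.34% of all genes were lower without overlap. The markers Mepe (bone), Flt1 and Tie1 (endothelium), Des, Mcam, Lmod1 and Myocd (smooth muscle and pericyte) and Tcf21, Clec3b and Pi16 (fibroblast) lay below the filter.

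Other lists did not all move the same way. The cartilage list (10 of 10 named) summed to 3947.9, 2459 and 2435.8 in Harlequin, against 2643.8, 3356.3 and 3054 in controls. All 9 cartilage genes tested had differences below 0, with a median of -0.18, from -0.39 for Col11a2 to -0.01 for Cnmd. The glial list (8 of 10 named) summed to 24257.1, 22454.1 and 24852.9 in Harlequin, against 22392.7, 28476.1 and 27140.9 in controls, most of it from Apod and Fabp7. Of its 8 genes tested, 6 were lower on average (median -0.23). Of these S100b (-0.42), Mbp (-0.61) and Mag (-0.45) had no overlap and an unadjusted p under 0.05 (limma adjusted p = 0.981 each). They were 37.5% of the 8 genes, where 5.34% of all genes were lower without overlap and 2.58% lower at that unadjusted p. The erythrocyte list (8 of 11 named) summed to 3747.3, 4770.1 and 3580.1 in Harlequin, against 1537.8, 1020.5 and 2594.7 in controls. Sums of the adipocyte list (6 of 8) also did not overlap, at 628.8 to 1370.5 in Harlequin and 469.2 to 588.9 in controls. Its mean log2 deviation over genes did overlap, at -0.23 in Harlequin replicate 1 against -0.15, -0.24 and -0.14 in controls. The neutrophil list (10 of 10 named) summed to 61271.8, 48668.2 and 41743.3 in Harlequin, against 33087.2, 22186.7 and 53369.5 in controls. All 10 of its genes had differences above 0 (median 0.73). Among them Chil3, a chitinase-like protein, rose without overlap (log2 difference 2.20, limma adjusted p = 0.0315). The Chil3 call was lost without a trend, with the replicate block and without control replicate 1 or 3, where 0 genes were called. It was also lost without Harlequin replicate 1, where the 1 gene called was Aifm1 (limma adjusted p = 0.00146). Below the filter lay Cidec, Lep and Retn (adipocyte), Hba-a1 and Epb42 (erythrocyte) and Matn3 (cartilage). So did Ckm, Tnnt3, Myh4, Tnni2 and Pvalb (skeletal muscle). Skeletal muscle (8 of 8), sustentacular (7 of 8) and mature olfactory neuron (6 of 8) sums overlapped between the genotypes. The part of these cells in the matrix values was not tested.

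The rest of the matrix pathway was read from 7 further lists, of which 109 of 134 genes were tested. Of these 74 were lower and 35 higher in Harlequin, with a median of -0.08, and 0 were called in limma. At an unadjusted p under 0.05 there were 5 lower, or 4.59% against 2.58% of all genes, and 2 higher, where 2% of all genes were. Among other collagen chains 12 of 18 were lower (median -0.16). Col8a1, a short-chain collagen of vessel walls and Descemet's membrane, had 118, 145.5 and 366.1 in Harlequin, against 443.1, 519.9 and 302.8 in controls (log2 difference -1.08, limma adjusted p = 0.981, but -0.54 when all its probe sets were averaged). Col11a1, a minor chain of cartilage fibrils, had 316.5, 329.1 and 301.7 in Harlequin, against 381.2, 570.9 and 453.7 in controls without overlap (log2 difference -0.53). Col11a2 and Col4a5 differed by -0.39 and -0.43, the second by -0.20 when all its probe sets were averaged.

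Among other basement membrane components 6 of 9 were lower (median -0.02), with the endothelial laminin chain Lama4 at -0.36, and at 0 when all its probe sets were averaged. Among other matrix glycoproteins and proteoglycans 19 of 27 were lower (median -0.13). Efemp1, fibulin-3, had 1203.8, 962 and 991.8 in Harlequin, against 1253.6, 1482.1 and 1295.1 in controls without overlap (log2 difference -0.35). The latent TGF-beta binding protein Ltbp3 differed by -0.34, but by 0.03 when all its probe sets were averaged. Mfap5, a microfibril protein, was the other way, with 86.3, 151.3 and 115.1 in Harlequin, against 65, 84.9 and 56.4 in controls without overlap (log2 difference 0.64, or 0.31 when all its probe sets were averaged).

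Collagen modification and crosslinking enzymes were split, with 9 of 17 lower and a median of 0. Colgalt1, which adds galactose to collagen hydroxylysines, had 949.7, 823.8 and 805.3 in Harlequin, against 423.2, 743.5 and 406.9 in controls (log2 difference 0.75, unadjusted p = 0.00904, limma adjusted p = 0.981). All Harlequin signals lay above all control signals. The oxidase Loxl4 differed by -0.52, but by -0.02 without control replicate 1 and by -0.18 when all its probe sets were averaged. Matrix proteases and inhibitors had 11 of 15 lower (median -0.15), with the collagenase Mmp13 at -0.52, the aggrecanase Adamts5 at -0.43 and the inhibitor Timp1 at -0.42, all with overlap. Mmp23 was the other way, at 0.53, also with overlap.

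Matrix receptors had 10 of 12 lower (median -0.15). The collagen receptor Ddr1, found mainly on epithelia, had 4368.1, 3102.2 and 3034.8 in Harlequin, against 4559.7, 4489.3 and 4866.6 in controls without overlap (log2 difference -0.42, but -0.10 when probe sets ending in _s_at or _x_at were dropped). Its mesenchymal relative Ddr2 differed by -0.32, also without overlap, and the pericyte receptor Pdgfrb by -0.42. Among matrix-inducing signals 7 of 11 were lower (median -0.07), with the fibroblast mitogen Pdgfc at -0.36 and no overlap. In 8 of the 109 genes the Harlequin signals all lay below the controls, or 7.34%, against 5.34% of all genes, and in 2 they all lay above, as in 5.02% of all genes.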

How the data were processed

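The 6 deposited columns hold linear probe set intensities, 45101 per array. Per the labels' protocols, 3 µg of total RNA from snap-frozen tissue went into each biotinylated cRNA. On all arrays the deposited intensities averaged 500 once 2% was trimmed from either end. The sources used here do not name the software that condensed probe cells. An array in these files is a mouse, and groups and replicate numbers came from the titles.

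The 64 control probe sets were left out. Genes were named through the platform annotation, and probe sets naming several genes (932) or unnamed there (9160) were not used. A gene's brightest probe set by mean log2(value + 16) stood for it, and genes above the 40th percentile, a signal of 61.1, were tested, 13219 in all. The pseudocount understates changes of dim genes. The genotypes were compared with limma 3.58.1 in R 4.3.3, using an intensity trend, 3 against 3 arrays, with two-sided p-values, Benjamini-Hochberg adjustment over all genes and a threshold of 0.05. The procedure was tested on simulated data. Promoter sequences are RefSeq's for GRCm38.p6, read in Python 3.11.15.

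The members, gene lists and tests were chosen with earlier results of these data known. All 35 matrix genes are named, and from each pathway list up to 4 genes with the smallest unadjusted p, of which not every gene is printed. Genes named from the marker lists were chosen after their values were seen. Alternatives were pseudocounts of 1 and 64, no filter or a 60th-percentile filter, median scaling, quantile normalization, robust moderation or no trend in limma, averaging a gene's probe sets, dropping those ending in _s_at or _x_at, a replicate block, and leaving out single arrays. The average over a gene's probe sets took in those below the filter, so dim probe sets can move it.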

Additional observations from a re-analysis of the deposited data

How the results depend on the processing

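Over 17 alternative settings, 0 of 573 matrix gene values passed the threshold in limma, the smallest adjusted p being 0.583, and 22 of the 34 genes kept their sign in every setting run. The medians of the 5 classes and of all matrix genes stayed below 0 in all of them. The sign changed with quantile normalization for Fbln2 (0.01), with median scaling for Fbln2 (0.02), Fbln5 (0.01) and Pdgfra (0.03), and with the mean over probe sets for Col18a1 (-0.04), Fbln2 (0.22), Fbln5 (0.09), Eln (0.04), Lox (0.13), Loxl1 (0, adjusted p = 1) and, outside the 35 genes, Ltbp3 (0.03). For Fbln2, Fbln5, Eln, Lox and Loxl1 the mean over probe sets took in a probe set below the filter. With 1 array left out the ranges that crossed 0 were -0.33 to 0.05 for Dcn, -0.24 to 0 for Fbln1, -0.25 to 0.14 for Fbln2, -0.21 to 0.28 for Fbln5, -0.26 to 0.12 for Fn1, -0.15 to 0.09 for Eln, -0.20 to 0.16 for Lox, -0.45 to 0.07 for Pcolce, -0.71 to 0.01 for Serpinh1 and -0.13 to 0.17 for Pdgfra. Aifm1 lost its call without an intensity trend (-2.20, adjusted p = 0.0887) and with the replicate block (-2.20, adjusted p = 0.0605), and ranged from -2.40 to -2.08 with 1 array left out. The number of all genes called was 4, and 0 without a trend, 0 with the replicate block, and 0 to 3 with 1 array left out. The replicate block left the number of matrix genes called at 0. Deviations of same-numbered arrays from their genotype means correlated at -0.24, -0.03 and 0.06 across genes, and those of other pairs at -0.25 to 0.30. These values cannot decide whether the numbers pair the mice, since the deviations of 3 arrays sum to 0 within each genotype. The titles do not state a pairing. The causes of these changes were not tested.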

Other observations

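Pairs of matrix genes that are direct neighbours among protein-coding genes in the RefSeq table of GRCm38.p6 are given side by side, in values already listed by array. Col3a1 and Col5a2, neighbours on chromosome 1, differed by -0.77 and -0.35 and were both highest in control replicate 1 and lowest in Harlequin replicate 3. Col4a1 and Col4a2, neighbours on chromosome 8 read from opposite strands, differed by -0.53 and -0.22 and were both highest in control replicate 3. Col6a1 and Col6a2, neighbours on chromosome 10, differed by -0.52 and -0.61 and were both lowest in Harlequin replicate 3. Dcn and Lum, neighbours on chromosome 10, differed by -0.14 and -0.30 and were both highest in Harlequin replicate 2 and lowest in Harlequin replicate 1. Matrix genes on different chromosomes shared such arrays too, such as Sparc on chromosome 11, which was highest in control replicate 1 and lowest in Harlequin replicate 3 as Col3a1 was.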
